A study of Mus musculus with 6 samples.

Results

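The genes described here are 8 factors of neuronal commitment: the proneural gene Neurog1, the neuronal basic helix-loop-helix (bHLH) genes Neurod4, Nhlh1 and Nhlh2, the E protein genes Tcf4 and Tcf12, the zinc finger gene Insm1, and Gadd45g. They were chosen by name, and every probe set whose platform annotation gave exactly 1 of these symbols was taken. This gave all 8 genes, with 21 probe sets among 45037 non-control probe sets. Expression had been measured on Affymetrix mouse whole-genome arrays in E13.5 embryos (the letter stands for embryonic day). Embryos labelled Olig2-/- for the bHLH gene Olig2 (called ko below) were compared with Olig2+/+ embryos (wt). RNA of 3 brains was pooled for each array, the dissected piece is named ventral forebrain in the series text but ventral telencephalon in the labels, and no other allele or agent is named. Of the 5 replicates per genotype that the series text states, those analysed here are ko 2, ko 4 and ko 5 (knockout) with wt 1, wt 4 and wt 5 (wild type). Values are log2 expression values, so a difference of 1 is a doubling of signal. They compare one probe set across arrays and not one gene with another.

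Proneural bHLH proteins start neurogenesis in dividing progenitors. They pair with widely expressed E proteins, bind DNA at short sites called E-boxes, and switch on Notch ligands and a cascade of later bHLH and zinc finger factors that carry the cell out of the cycle. Neurogenins serve mainly in the pallium and in parts of the diencephalon and peripheral nervous system, whereas the ganglionic eminences of the ventral telencephalon rely mainly on other proneural factors. Olig2 is itself a bHLH protein of ventral progenitors that also pairs with E proteins.

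For none of the 8 genes was a difference between the genotypes detected beyond the spread between arrays. A probe set was tested if it was above its own array's median on at least 3 of the 6 arrays. This kept 22565 probe sets, 17 of the 21 member probe sets among them, with at least 1 for each gene. In limma, 0 of these 17 passed a Benjamini-Hochberg adjusted p of 0.05, against a background of 0% of all tested probe sets, and 0 of 17 had an unadjusted p below 0.05, against 9.4%. The genotypes did not overlap for 1 of the 17 probe sets, against 16.2% of all tested, with no allowance for near ties. At the brightest tested probe set of each gene, the knockout was higher for 4 genes and lower for 4 (6 and 2 with each array centred on its median), with a median log2 difference of 0.03. Over all 10630 genes represented, 49.3% were higher and the median was -0.0015. Nothing labels these arrays as separate litters, so the p-values measure only the spread between 6 pooled samples, and their small number limits the precision. In bulk tissue, fewer cells of a type and less RNA per cell cannot be told apart.

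**Figure D1:**
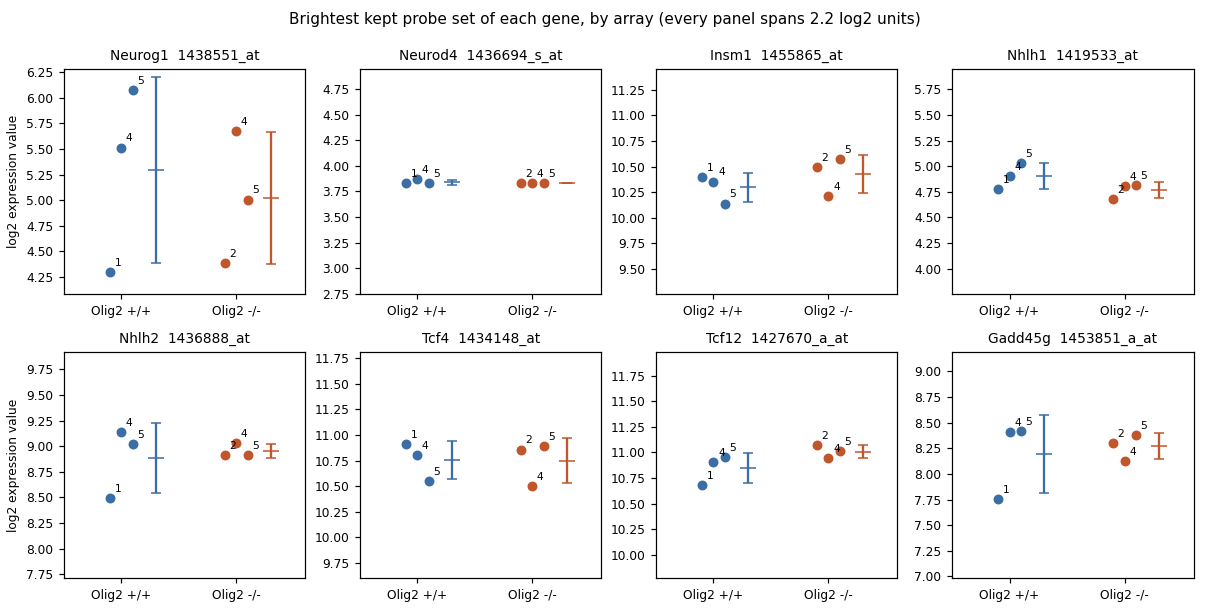
Log2 expression value of the brightest tested probe set of each of the 8 genes; each point is 1 array with its replicate number, and the bars give the mean ± SD of 3 arrays. The y axes start at different levels but all span the same range, and wild-type replicate 1 is the lowest array for Neurog1, Nhlh2, Tcf12 and Gadd45g.

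Olig2 itself read 8.20, 8.22 and 8.42 on the wild-type arrays and 7.48, 7.53 and 7.76 on the knockout arrays (replicates in rising order of their number, as in all lists below), a log2 difference of -0.69 that did not pass (limma adjusted p = 0.511). Signal well above the floor of the method, 2.27, thus remained on the knockout arrays, and the sources used here do not place this probe set inside or outside the deletion. Array medians lay between 3.14 and 3.19, and 33.2% to 33.7% of the values of each array lay within 0.03 of its lowest value. Of 7 ventral telencephalon markers with a probe set, 6 were tested, and the mean of the 7 lay between 8.09 and 8.27 on all 6 arrays. Of the 6 tested, 2 were higher in the knockout and 4 lower, with a median of -0.095. Gsx2 read 5.94, 6.17 and 6.06 on the wild-type arrays and 6.74, 6.68 and 6.38 on the knockout arrays. Its log2 difference was 0.54 (SE 0.12, limma adjusted p = 0.511). It alone of the 6 had an unadjusted limma p below 0.05, against 4.98% of all tested probe sets in that direction. Gsx2 (higher) and Lhx6 (lower) did not overlap, against 16.2% of all tested probe sets in both directions. Nkx2-1, which defines the medial ganglionic eminence, was dim, between 2.69 and 3.36 on the 6 arrays, and was not tested, whereas Lhx6, a later gene of the same lineage, had a wild-type mean of 8.71 ± 0.34 and a knockout mean of 8.38 ± 0.14 (SD, n = 3 each). The means of Lhx8 were 10.06 ± 0.12 and 10.18 ± 0.07. Of 10 listed markers of a neighbouring region, the thalamus with other diencephalon, 9 had a probe set and 8 were tested, of which 2 were higher and 6 lower, with a median of -0.54. The 6 lower genes each had an unadjusted p below 0.05, against 4.42% of all tested probe sets in that direction, and none passed limma's adjusted p of 0.05. Of the 8 tested, 5 did not overlap, all of them lower, against 16.2% of all tested probe sets in both directions. The mean level of the 9 ran from 7.06 to 7.26 over the wild-type arrays and from 6.44 to 6.81 over the knockout arrays, with Foxb1 at the floor on every array, and the part of these markers in the values of the genes described here was not tested. Knockout replicate 2 and wild-type replicate 1 stood apart by meningeal and mesenchymal markers. All 8 of those had a probe set, 1 (Col3a1) was tested and none was at the floor on every array. Their mean level was 4.38 on knockout replicate 2 against 2.65 to 2.66 on the other knockout arrays, and 3.34 on wild-type replicate 1 against 2.71 to 2.73 on the other wild-type arrays. Choroid plexus markers split the arrays another way. All 5 had a probe set, 2 (Ttr and Otx2) were tested, and Kl was at the floor on every array. The mean level of the 5 was 4.64, 5.16 and 3.73 on the wild-type arrays and 5.02, 4.35 and 3.96 on the knockout arrays. Ttr alone read 8.36, 10.96 and 3.46 against 9.99, 6.42 and 4.85. The part of choroid plexus markers in the member values was not tested.

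The sequences just upstream of 4 of the genes are shown because E-boxes are the sites that all the bHLH members and Olig2 itself read, and because Neurog1, Nhlh2 and Gadd45g shared their lowest array. Tcf12 shared that array at its brightest probe set but is not shown. Nhlh1, shown beside the related Nhlh2, was lowest on knockout replicate 2. The windows are the 250 bases before the start of each gene in RefSeq, build GRCm38.p6, written 5′ to 3′ along the gene, and capitals mark every E-box, CANNTG, which reads the same on both strands.

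Neurog1, chr13:56252181-56252430, - strand: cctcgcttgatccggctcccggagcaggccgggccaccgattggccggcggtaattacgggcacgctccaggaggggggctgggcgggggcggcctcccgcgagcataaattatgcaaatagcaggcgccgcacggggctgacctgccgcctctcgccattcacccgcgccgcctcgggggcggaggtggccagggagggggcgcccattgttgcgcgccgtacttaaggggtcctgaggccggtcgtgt
Nhlh1, chr1:172057597-172057846, - strand: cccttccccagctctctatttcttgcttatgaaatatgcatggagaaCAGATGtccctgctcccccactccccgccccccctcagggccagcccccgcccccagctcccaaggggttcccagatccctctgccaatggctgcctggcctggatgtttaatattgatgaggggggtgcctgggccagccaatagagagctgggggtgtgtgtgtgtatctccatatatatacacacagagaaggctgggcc
Nhlh2, chr3:102009895-102010144, + strand: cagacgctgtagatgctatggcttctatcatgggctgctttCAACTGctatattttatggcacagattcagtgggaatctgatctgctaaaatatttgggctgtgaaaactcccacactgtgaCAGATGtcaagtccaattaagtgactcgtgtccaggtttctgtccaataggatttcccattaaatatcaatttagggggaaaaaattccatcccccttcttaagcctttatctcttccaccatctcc
Gadd45g, chr13:51846425-51846674, + strand: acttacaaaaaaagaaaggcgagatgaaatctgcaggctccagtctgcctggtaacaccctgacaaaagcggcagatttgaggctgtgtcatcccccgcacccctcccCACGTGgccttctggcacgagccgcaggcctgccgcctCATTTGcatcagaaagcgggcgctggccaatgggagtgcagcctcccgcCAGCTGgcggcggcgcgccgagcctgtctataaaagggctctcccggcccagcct

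Nhlh1 and Nhlh2 each held CAGATG, a form of the E-box that neurogenin and NeuroD factors are known to bind. It lay 203 to 198 bases before the start of Nhlh1 and 127 to 122 bases before that of Nhlh2, which also held CAACTG. Gadd45g held 3 E-boxes, of which the farthest, CACGTG, began 142 bases before its start and the nearest, CAGCTG, ended 50 bases before it, and the Neurog1 window held none. Of the 8 genes, 6 matched the RefSeq table, with 9 windows, since Tcf12 had 3 starts and Neurod4 had 2. An E-box stood in 5 of the 9 windows and in 66.2% of the 32851 windows of that length in the table. CAGATG or its reverse complement CATCTG, which is one of the E-box forms, stood in 2 of the 9 and in 14.4% of all. A match describes the letters only.

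Neurog1, which starts neurogenesis as a neurogenin, varied more between arrays of one genotype than between the genotypes. Its brighter probe set, 1438551_at, read 4.30, 5.51 and 6.07 on the wild-type arrays and 4.38, 5.67 and 5.01 on the knockout arrays. Each genotype thus held 1 low array, wild-type replicate 1 and knockout replicate 2, and the groups overlapped fully. The means were 5.29 ± 0.91 for the wild type and 5.02 ± 0.64 for the knockout (SD, n = 3 each), a log2 difference of -0.27 (SE 0.53, 95% interval -1.59 to 1.04, limma adjusted p = 0.833). The interval reaches from a 3.01-fold lower to a 2.06-fold higher level, so the arrays set only a wide bound on any change of Neurog1. The difference turned to 0.04 without knockout replicate 2 (limma adjusted p = 0.982) and to 0.11 when wild-type replicate 5 was left out (0.936), and was -0.77 without wild-type replicate 1 (0.748). Over all alternatives run for Neurog1, limma's adjusted p lay between 0.466 and 1. The SD over all 6 arrays, 0.72, was at percentile 98.3 of all tested probe sets. The 2 low arrays were the 2 with the highest meningeal and mesenchymal marker levels given above, and the part of those markers in the Neurog1 values was not tested. The other Neurog1 probe set, 1450836_at, read 2.27 on all 6 arrays, at the floor, and holds no information on either genotype.

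Among 10603 other genes that varied, the 5 whose values followed Neurog1 most closely over the 6 arrays were Dctn1 (Pearson r = 0.992), Pdlim1 (0.984), Ralgps2 (0.98), Ktn1 (0.976) and Jagn1 (0.973). Their ranges were narrower than that of Neurog1: Pdlim1 lay between 5.64 and 6.16 and Dctn1 between 9.41 and 9.61. With 6 arrays, each its own pool, and all genes read on the same arrays, such values are a description only, and 86 genes had r above 0.9.

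The later bHLH genes of the cascade showed no difference past the threshold. Nhlh1 and Nhlh2 encode a pair of closely related bHLH proteins that appear as newborn neurons leave the ventricular zone. The single probe set of Nhlh1 read 4.78, 4.90 and 5.03 on the wild-type arrays and 4.68, 4.81 and 4.82 on the knockout arrays. The highest of these was wild-type replicate 5 and the lowest knockout replicate 2, and the groups overlapped through wild-type replicate 1. The log2 difference was -0.14 (SE 0.09, 95% interval -0.36 to 0.09, limma adjusted p = 0.562), which leaves room for a level up to 1.29-fold lower and 1.06-fold higher.

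Nhlh2 read 8.49, 9.14 and 9.02 on the wild-type arrays and 8.92, 9.03 and 8.91 on the knockout arrays. The 3 knockout arrays lay within 0.12 of each other and the wild-type arrays spanned 0.65, with wild-type replicate 1 alone below the knockout. The log2 difference was 0.07 (SE 0.18, 95% interval -0.37 to 0.51, limma adjusted p = 0.877). Without wild-type replicate 1 it was -0.13 (limma adjusted p = 0.749, and 0.591 to 1 over all alternatives), so the direction for Nhlh2 rests on that array.

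Neurod4, a bHLH gene of the NeuroD family that acts after the neurogenins, could not be followed on these arrays. Its only tested probe set, 1436694_s_at, read 3.83 on all arrays except wild-type replicate 4, where it read 3.87. An SD over the 6 arrays of 0.02, at percentile 1.05 of all tested probe sets, shows a value that hardly moves. The limma difference of -0.01 (SE 0.06, adjusted p = 0.931) therefore sets no useful bound, and its sign turned, to 0.01, both with the arrays centred on their medians and with quantile normalization repeated. The suffix _s_at marks probes that can also match other transcripts. The other 2 probe sets were not tested. One stayed at 2.27 on every array, and 1418054_at read 2.65, 2.99 and 2.92 on the wild-type arrays and 2.62, 2.80 and 2.62 on the knockout arrays, below the array medians throughout.

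Insm1 and Gadd45g stand for the step from cycling progenitor to committed precursor. Insm1 encodes a zinc finger repressor of newly committed neuronal precursors. Its brightest probe set, 1455865_at, read 10.40, 10.35 and 10.14 on the wild-type arrays and 10.49, 10.21 and 10.57 on the knockout arrays. The highest 2 arrays were knockout replicates 5 and 2 and the lowest 2 were wild-type replicate 5 and knockout replicate 4, so the groups overlapped. The log2 difference was 0.13 (SE 0.13, 95% interval -0.18 to 0.44, limma adjusted p = 0.663). At this probe set the interval reaches from a 1.13-fold lower to a 1.36-fold higher level. It was 0.05 without wild-type replicate 5, 0.06 without knockout replicate 5 and 0.24 without knockout replicate 4. The second probe set, 1421399_at, read 8.02, 8.26 and 7.85 on the wild-type arrays and 7.91, 8.26 and 7.81 on the knockout arrays, a difference of -0.05 (SE 0.16, limma adjusted p = 0.915). Its 95% interval, -0.45 to 0.35, reaches from a 1.36-fold lower to a 1.28-fold higher level. The 2 probe sets did not track each other over the arrays (r = -0.35, n = 6): knockout replicate 4 was the highest array for one and among the lowest for the other. The sign at 1421399_at turned when wild-type replicate 4 (0.06) or knockout replicate 5 (0.05) was left out.

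Gadd45g encodes a small stress and growth-arrest protein that neuronal precursors make around their exit from the cell cycle. It read 7.75, 8.40 and 8.42 on the wild-type arrays and 8.30, 8.13 and 8.38 on the knockout arrays. Wild-type replicate 1 was again the lowest array, and the other wild-type arrays were the highest. The log2 difference was 0.08 (SE 0.20, 95% interval -0.42 to 0.57, limma adjusted p = 0.877), and -0.14 without wild-type replicate 1 (0.752, and 0.692 to 1 over all alternatives).

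**Figure D2:**
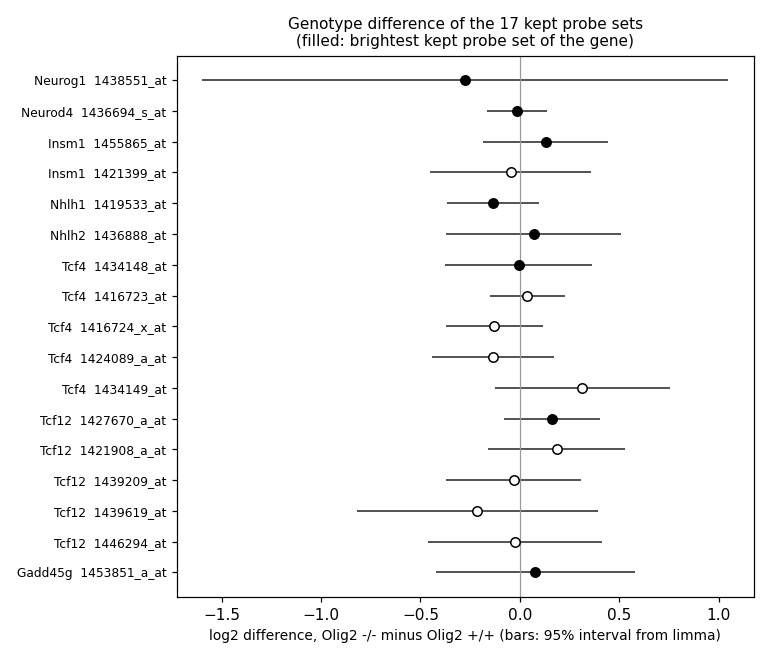
Log2 difference, knockout minus wild type, of the 17 tested probe sets with the 95% interval from limma; filled points are the brightest probe set of each gene. Every interval includes 0, and the widest is that of Neurog1, from -1.59 to 1.04.

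The E proteins are the shared dimer partners of the proneural factors and of Olig2, and their mRNAs are made broadly. Tcf4 here is the E protein also called E2-2 and is not Tcf7l2, the Wnt effector that shares the nickname. Its brightest probe set, 1434148_at, read 10.91, 10.80 and 10.55 on the wild-type arrays and 10.86, 10.50 and 10.89 on the knockout arrays. The log2 difference was -0.01 (SE 0.15, 95% interval -0.37 to 0.36, limma adjusted p = 0.992). Its sign turned with single arrays left out: it was 0.07 without wild-type replicate 1, 0.12 without knockout replicate 4 and 0.02 when wild-type replicate 4 was the one left out. The 5 tested probe sets of Tcf4 ranged in their difference from -0.13 to 0.31.

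The Tcf4 values went different ways within the arrays. Probe sets 1416724_x_at and 1424089_a_at tracked each other (r = 0.97, n = 6) and both differed by -0.13 (limma adjusted p = 0.59 and 0.644). Probe set 1434149_at read 8.79, 8.96 and 8.40 on the wild-type arrays and 9.25, 8.87 and 8.96 on the knockout arrays, a difference of 0.31 (SE 0.18, 95% interval -0.12 to 0.75, limma adjusted p = 0.527). Leaving out wild-type replicate 5 gave 0.16, and leaving out wild-type replicate 4 gave 0.44. It had the lowest unadjusted p of the 17, 0.127 in limma, and its groups overlapped through wild-type replicate 4. Its correlation with the other 4 tested probe sets of the gene ran from -0.21 to 0.54. Tcf4 makes many transcript forms, and the sources used here do not say which of them each probe set reads. The probe set 1416723_at was the steadiest, between 10.33 and 10.49 on all 6 arrays, with a difference of 0.04, which was -0.002 without wild-type replicate 4. The dim 1416725_at read 2.42 to 2.46 and was not tested.

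Tcf12, the E protein also called HEB, was the gene whose 2 brightest probe sets were both higher in the knockout. Probe set 1427670_a_at read 10.68, 10.90 and 10.96 on the wild-type arrays and 11.07, 10.94 and 11.02 on the knockout arrays. Probe set 1421908_a_at read 9.32, 9.75 and 9.79 on the wild-type arrays and 9.80, 9.81 and 9.81 on the knockout arrays. This was the 1 member probe set without overlap, with 9.791 on wild-type replicate 5 and 9.796 on knockout replicate 2. These values are closer than 0.01, which is taken as a tie where lowest arrays are counted below. The margin between them is small beside the distance of wild-type replicate 1 from the other wild-type arrays. The log2 differences were 0.16 (SE 0.10, 95% interval -0.07 to 0.40, limma adjusted p = 0.537) and 0.19 (SE 0.14, 95% interval -0.15 to 0.52, 0.584). Without wild-type replicate 1 they were 0.08 and 0.04 (limma adjusted p = 0.782 and 0.873). Over all alternatives these p-values ran from 0.452 to 0.866 and from 0.461 to 0.889. The other 3 probe sets of Tcf12 differed by -0.03 (1439209_at), -0.21 (1439619_at) and -0.03 (1446294_at), with limma adjusted p from 0.708 to 0.961. The largest of these, at 1439619_at, rests on knockout replicate 4, which read 6.73 where the other 5 arrays lay between 7.21 and 7.68. Without that array the difference was 0.01. The sign at 1439209_at turned when knockout replicate 2 (0.07) or wild-type replicate 5 (0.05) was left out, and that at 1446294_at when knockout replicate 5 (0.03) or wild-type replicate 5 (0.14) was.

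**Figure D3:**
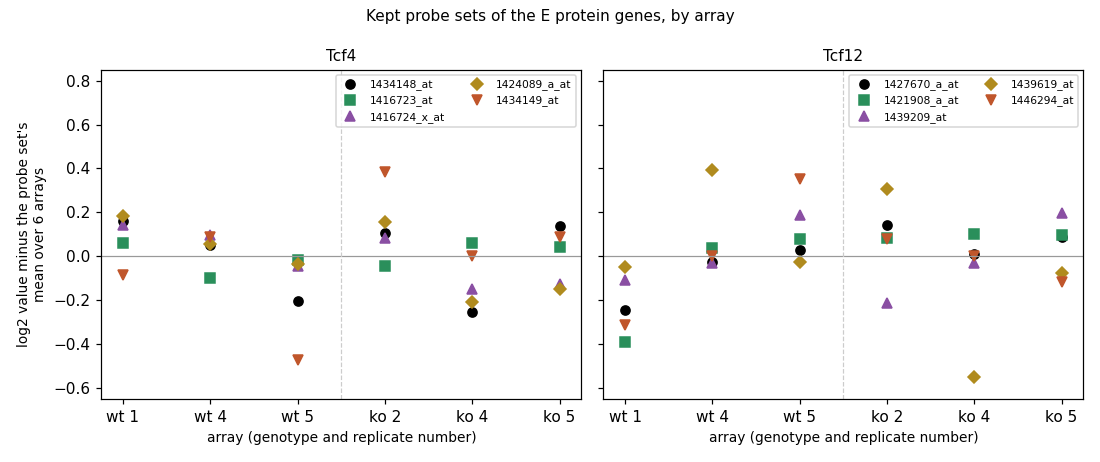
Tested probe sets of Tcf4 and Tcf12, 5 each, as the log2 value on each array minus that probe set's mean over the 6 arrays (y axis), by array (x axis); the dashed line parts wild type from knockout. All 5 Tcf12 probe sets are below their mean on wild-type replicate 1, and the Tcf4 probe set 1434149_at is lowest on wild-type replicate 5.

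Wild-type replicate 1 was the lowest of the 6 arrays at the brightest probe set of 4 genes, Neurog1, Nhlh2, Tcf12 and Gadd45g, and lay below both other wild-type arrays for Nhlh1 as well. Over the 17 tested member probe sets it was lowest for 6 (35.3%), against 27.1% of all tested probe sets, with values closer than 0.01 counted as tied, a share near that background. The gap to the mean of the other wild-type arrays was -1.49 for Neurog1, -0.66 for Gadd45g, -0.59 for Nhlh2 and -0.25 for Tcf12, at percentiles 0.137, 3.06, 4.25 and 19.3 of all tested probe sets. Insm1 and Tcf4 went the other way at their brightest probe sets, by 0.15 and 0.24, and Neurod4 differed there by -0.02.

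By the mean of each list, the same array was low in cell cycle markers and high in markers of postmitotic neurons. Taken as the mean deviation from each gene's mean over the 6 arrays, the 8 member genes stood at -0.23 on wild-type replicate 1 and between -0.06 and 0.12 on the others. Without Neurog1 the remaining 7 stood at -0.15 there and between -0.06 and 0.08 elsewhere. The 12 cell cycle markers tested of 13 listed stood at -0.24 there and between -0.01 and 0.12 elsewhere, and the 10 neuronal markers at 0.30 there and between -0.14 and 0.03 elsewhere. The neuronal markers did not all behave alike. Mapt read 12.91 there against 12.10 and 12.00 on the other wild-type arrays. Ina read 11.90 against 11.23 and 11.37, and Syn1 read 7.86 against 6.99 on both. Dcx (11.65) and Map2 (11.70) were below both other wild-type arrays there, and Tubb3 (11.45) lay between them. The mean level of the cell cycle list was 9.30 to 9.66 in the wild type and 9.53 to 9.63 in the knockout, that of the neuronal list 10.54 to 10.84 and 10.40 to 10.46, and no marker of either was at the floor. Between the genotypes, 1 of the 10 neuronal markers was higher in the knockout and 9 lower, with a median of -0.102. Of the 10, 3 (Mapt, Ina and Syn1, all lower) did not overlap, against 16.2% of all tested probe sets in both directions. An unadjusted limma p below 0.05 was found for 1 of the 10, which was lower, against 4.42% of all tested probe sets in that direction. None passed the adjusted threshold. The part of these markers in the member values was not tested. Without wild-type replicate 1 the median difference of the 8 genes was -0.07, against 0.03 with it.

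**Figure D4:**
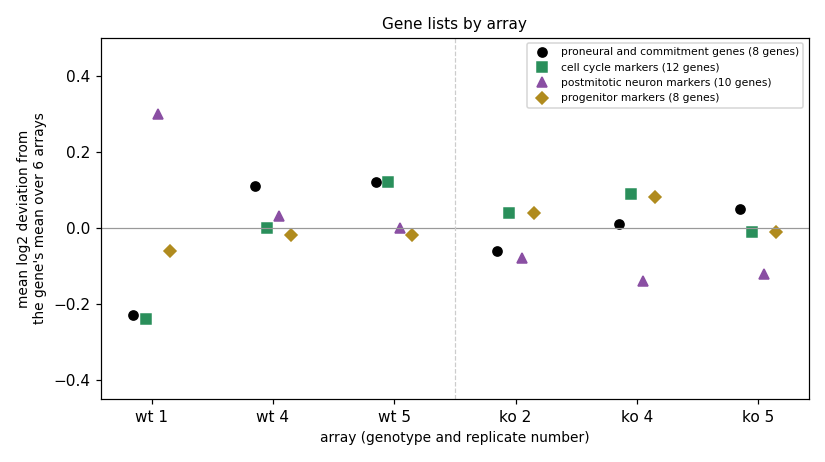
Mean log2 deviation of the genes of a list from their own means over the 6 arrays (y axis), for each array (x axis); each point is 1 list on 1 array and points are shifted sideways to part them. On wild-type replicate 1 the 8 proneural and commitment genes are at -0.23, the cell cycle markers at -0.24 and the neuronal markers at 0.30.

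The wider cascade was read from lists chosen with earlier results of these data known, at the brightest tested probe set of each gene. No gene of these lists passed limma's adjusted p of 0.05. Of 16 proneural and neuronal bHLH genes listed, 14 had a probe set and 8 were tested, among them 4 of the members. Of the 8, 4 were higher and 4 lower, with a median of 0.03 against -0.0015 over all genes, and 1, which was higher, had an unadjusted p below 0.05, against 4.98% of all tested probe sets in that direction. That gene was Neurod6, a bHLH gene of maturing pallial glutamatergic neurons, which read 7.84, 8.06 and 7.68 on the wild-type arrays and 8.57, 8.32 and 8.25 on the knockout arrays (log2 difference 0.52, SE 0.13, limma adjusted p = 0.511). Neurog2, the sister gene of Neurog1, read 9.09, 9.90 and 9.52 against 9.02, 9.19 and 9.20, a difference of -0.37 with overlapping groups (SE 0.21, limma adjusted p = 0.527). Leaving out wild-type replicate 1 gave -0.57, leaving out wild-type replicate 4 gave -0.17, and leaving out the latter together with knockout replicate 2 gave -0.11. As with Neurog1, its lowest arrays were knockout replicate 2 and wild-type replicate 1. Neurod2, a NeuroD gene of pallial neurons, differed by 0.19 (SE 0.12, limma adjusted p = 0.544). It was dim and read the same value, 4.46, on wild-type replicate 4 and on knockout replicates 2 and 5. Its second tested probe set read 3.43 on all arrays except wild-type replicate 4 (3.58) and differed by -0.05. Both NeuroD genes also belong to the pallial marker list, of which 7 had a probe set and 5 were tested, 4 higher and 1 lower. The median of 0.19 is the value of Neurod2 itself, and Emx2, counted as higher, differed by 0.007. Of the 5, 2 had an unadjusted limma p below 0.05, both higher, against 4.98% of all tested probe sets in that direction. The same 2 did not overlap, against 16.2% of all tested probe sets in both directions. They were Neurod6 and Tbr1, a T-box gene of pallial glutamatergic neurons. Tbr1 read 8.15, 7.91 and 7.95 on the wild-type arrays and 8.44, 8.61 and 8.32 on the knockout arrays (log2 difference 0.45, SE 0.11, limma adjusted p = 0.511). The mean level of the 7 ran from 5.54 to 5.72 over the wild-type arrays and from 5.69 to 5.90 over the knockout arrays, with Slc17a7 at the floor on every array. The part of pallial markers in the values of Neurod6 and Neurod2, and that of the thalamic markers given above in those of Neurog2, was not tested. The third E protein gene, Tcf3, differed by 0.07 (SE 0.07, limma adjusted p = 0.695), and by -0.06 and 0.01 at its other probe sets.

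Inhibitors of bHLH activity included the Id proteins, which bind E proteins without binding DNA, and the Hes and Hey repressors that Notch switches on. Of 12 listed, 11 were tested, 5 higher and 6 lower, with a median of -0.01. At unadjusted p below 0.05 there were 2 higher and 1 lower, where 4.98% and 4.42% of all tested probe sets were called in these directions. The genotypes did not overlap for 3 higher genes (Id2, Hes1 and Rest) and 1 lower (Id4), against 16.2% of all tested probe sets in both directions. Rest read 4.18, 5.15 and 5.18 on the wild-type arrays and 5.37, 5.20 and 5.41 on the knockout arrays (log2 difference 0.49, SE 0.28, limma adjusted p = 0.531). Id2 read 9.39, 9.44 and 9.49 on the wild-type arrays and 9.83, 9.81 and 9.66 on the knockout arrays (log2 difference 0.33, SE 0.08, limma adjusted p = 0.511). A second Id2 probe set differed by 0.81 in the same direction. Hes1 was 0.40 higher (SE 0.12, limma adjusted p = 0.511), at 5.63, 5.70 and 5.56 against 5.93, 6.27 and 5.89. Id4 went the other way, from 12.37, 12.22 and 12.25 to 12.03, 11.91 and 12.17, a difference of -0.24 (SE 0.09, limma adjusted p = 0.511). Its other probe sets gave -0.08 and 0.13, so Id4 had no single direction.

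Genes switched on in committed neuronal precursors, Insm1 and Gadd45g among them, numbered 29, of which 27 were tested. Of these 10 were higher and 17 lower, with a median of -0.05, and 2 had an unadjusted p below 0.05, both lower, against 4.42% of all tested probe sets in that direction. Srrm4, a splicing regulator of neuronal microexons, read 6.54, 6.15 and 6.24 on the wild-type arrays and 5.81, 5.77 and 5.73 on the knockout arrays (log2 difference -0.54, SE 0.12, limma adjusted p = 0.511). Rcor2, a corepressor of the LSD1 complex, read 7.66, 6.96 and 7.22 against 6.58, 6.79 and 6.28 (difference -0.73, SE 0.22, limma adjusted p = 0.511). The part of the lower thalamic markers in these 2 values was not tested. Ebf3, a transcription factor of migrating postmitotic neurons, was 0.20 higher at its brightest probe set (SE 0.10, limma adjusted p = 0.513) and 0.41 and 0.61 higher at the other 2. Those 2 had unadjusted limma p-values of 0.0188 and 0.00839 (adjusted p = 0.511 for both). They fall outside the count above, which takes only the brightest probe set of each gene.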

How the data were processed

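Per the series text, images of Affymetrix MOE430 2.0 arrays went through GCOS and MAS5, and GCRMA then did the quantile normalization, the summary per probe set and the log2 step. These tools also stand in the submitters' processing notes, without versions. The authors deposited log2 values per probe set. GCRMA leaves a floor that compresses differences of dim genes, and quantile normalization hides changes in total RNA.

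Non-control probe sets were named from the platform annotation: 34945 had 1 gene symbol, 932 several (none with a member) and 9160 were unnamed. Those that exceeded the median of their own array on 3 or more of 6 arrays, counted regardless of genotype, were fitted with limma 3.58.1 in R 4.3.3 (lmFit, eBayes, two-sided, no block) and adjusted over all 22565. A gene is represented by its tested probe set of highest mean. Named were all members, the 3 other genes of lowest p per list, and the 5 genes most correlated with the most variable member. The fit was first tested on simulated data. Alternatives were 3 other filters, 2 scalings, array weights, a trended and robust variance, probe set means, a replicate block, and arrays left out singly or as a pair. Members, lists and alternatives were chosen with earlier results of these data known.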

Additional observations from a re-analysis of the deposited data

How the results depend on the processing

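No probe set of the whole table passed limma's adjusted p of 0.05 under any alternative run, against 2121 at unadjusted p below 0.05 in the fit as reported. No member probe set did either, and at unadjusted p below 0.05 the 1 member probe set called in any alternative was Tcf4 1434149_at with array weights. Unadjusted calls over all probe sets numbered 3491 with array weights, 3276 with knockout replicate 2 and wild-type replicate 4 both left out, and 1121 (without knockout replicate 5) to 3490 (without wild-type replicate 4) with 1 array left out. Probe sets without overlap numbered 11032 with that pair left out and 5011 to 7830 with 1 array left out, from 3658; fewer arrays overlap less often.

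The median difference of the 8 genes, 0.03, was 0.139 with the pair left out and -0.074 to 0.087 with 1 array left out. The genotypes share replicate numbers 4 and 5, but the deviations of same-numbered arrays correlated at -0.29 and 0.32, so the numbers were not taken as pairs. Between arrays of different number the correlations ran from -0.36 to 0.38. The highest was that of knockout replicate 2 with wild-type replicate 4, the pair left out above. With the replicate number as a block, which leaves knockout replicate 2 and wild-type replicate 1 without weight in the difference, the median was -0.065 and 2014 probe sets had an unadjusted p below 0.05. With arrays centred on their medians, 6 of the 8 genes were higher, from 4.

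Signs turned, with no value past the threshold and the cause not tested, as follows. With array weights Gadd45g was -0.069, Nhlh2 -0.041, Insm1 1421399_at 0.024 and Tcf4 1434148_at 0.106. With the replicate block Gadd45g was -0.158, Nhlh2 -0.108, Tcf12 1439209_at 0.006 and Tcf4 1434148_at 0.018. With the pair left out Neurog1 was 0.154, Insm1 1421399_at 0.102 and Tcf12 1439209_at 0.044. Centring gave 0.006 for Neurod4 and 0.013 for Tcf4 1434148_at, repeated quantile normalization 0.014 for Neurod4, and the mean of its probe sets 0.017 for Tcf4. With 1 array left out the ranges that crossed 0 were -0.772 to 0.114 for Neurog1, -0.126 to 0.197 for Nhlh2, -0.142 to 0.192 for Gadd45g, -0.181 to 0.062 for Insm1 1421399_at, -0.109 to 0.118 for Tcf4 1434148_at, -0.002 to 0.076 for Tcf4 1416723_at, and -0.139 to 0.068, -0.419 to 0.008 and -0.189 to 0.143 for Tcf12 1439209_at, 1439619_at and 1446294_at. Insm1 1455865_at, Nhlh1, the 2 brightest probe sets of Tcf12 and Tcf4 1434149_at, 1416724_x_at and 1424089_a_at kept their sign under every alternative run, as did Olig2 and the 10 other genes named from the lists for which alternatives were run (Neurod6, Neurog2, Neurod2, Tcf3, Id2, Hes1, Id4, Srrm4, Rcor2 and Ebf3). The 5 genes most like Neurog1 were not run under the alternatives. Low signal limits what can be read for Neurod4. For the other genes the number of arrays limits the precision, and the probe sets of Insm1, Tcf4 and Tcf12 also differed in sign within a gene. Why no difference was detected was not tested.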
